A study of Rattus norvegicus and Homo sapiens with 12 samples.

Results

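Receptors of the tumor necrosis factor (TNF) family that carry death or survival signals were followed in DU145, a human prostate cancer cell line, before and after selection by mesenchymal stem cells (MSCs). The 10 receptors were TNFRSF1A, FAS, TNFRSF10A, TNFRSF10B, TNFRSF25, TNFRSF21, TNFRSF10D, TNFRSF12A, LTBR and CD40, out of 60107 human genes in the count table. They were chosen by name and located by Ensembl identifier, and all 10 had enough counts to be tested. F0 DU145 is the parental population, grown in DMEM with serum. F2 DU145 (called MSC Educated in the labels) is the same line recovered from repeated 72 h cultures in conditioned media (CM) of human MSCs. The samples' labels give 2 rounds and the series description gives 3, with 48 h of recovery in complete medium between rounds. RNA was taken from 3 samples of each population, 6 libraries in all. Nothing in the labels says whether the F2 samples came from separate selections or from 1 selected population, and the errors and p-values below therefore describe the spread between samples of 1 cell line. The same series also holds 6 libraries of the rat line PAIII, which were not analysed here.

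TNF family receptors are membrane proteins that bind trimeric ligands on neighboring cells or in the medium. One group carries a cytoplasmic death domain, through which the adaptors FADD and TRADD are recruited, and caspase-8 is then activated or NF-κB is switched on. A second group lacks this domain and binds TRAF proteins, which mostly lead to NF-κB and survival signals. Decoy receptors bind the same ligand without passing on the death signal. FAS ligand and TRAIL, the ligand of TNFRSF10A and TNFRSF10B, are the classical inducers of death through such receptors. The comparison of F0 with F2 asks whether cells that outlived MSC CM differ in the mRNA of these receptors.

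QuantSeq copies RNA from the poly(A) end, so that reads of 101 bases fall near the 3′ end of a transcript. A count therefore depends little on transcript length, and levels of different receptors are set side by side below as TMM-normalized CPM (counts scaled to a common library size) without division by length. Gene counts ranged from 16029876 to 16479239 in F0 and from 15879480 to 16217918 in F2, and a gene with 3 counts, taken as the detection floor, lies at 0.177 to 0.195 CPM (counting error only). The share of gene counts from the mitochondrial genome was 5.86% ± 0.145 in F0 and 10.4% ± 0.201 in F2 (SD, n = 3 each), and with those genes left out the same number of receptors, 3, passed the threshold described next. That fit kept TMM scaling and moved the median log2 fold change of all genes by 0.00075, so it could change little. Scaling by library size without those genes was not tested. The line was checked by markers. Keratins KRT8 and KRT18 and EPCAM were expressed in every library, while KLK2 had 0 counts in all of them and KLK3 had 1 count in 1 library. Of 17 MSC markers, THY1, LUM, POSTN, CXCL12, SPARC and VCAM1 had 0 counts in all 6 libraries. The summed level of the 17 was 159 to 180 CPM in F0 and 228 to 246 CPM in F2. It came mostly from NT5E, which lay at 158 CPM in F0 compared with 222 in F2 (0.49 on the log2 scale, adjusted p = 1.30e-06 from edgeR). NES was also higher in F2, at 8.05 ± 0.573 CPM against 5.73 ± 0.847 in F0 (adjusted p = 0.0223 from edgeR). The other tested MSC markers, COL1A1 and LEPR, had at most 45 and 57 counts in any library (adjusted p = 0.390 and 0.204 from edgeR). Of 7 leukocyte markers, PTPRC and CD3E had 0 counts in every library, and the summed level was 1.598 to 1.95 CPM in F0 and 1.75 to 2.81 CPM in F2. LCP1, which encodes the actin-bundling protein L-plastin, was the 1 tested marker of this list and rose from 0.298 ± 0.0634 to 1.35 ± 0.329 CPM, with 4 to 6 counts per library in F0 and 17 to 27 in F2 (2.15 on the log2 scale, adjusted p = 0.00100 from edgeR). CD14 and CD74 had at most 14 and 12 counts in any library. The part of these markers in the receptor results was not tested.

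The receptors were tested in 1 fit with all genes (edgeR, quasi-likelihood, p adjusted by Benjamini-Hochberg). A gene is said to rise or fall where its adjusted p is under 0.05. Over all 14316 tested genes, 18.2% passed this threshold in either direction, with 9.49% higher and 8.67% lower in F2. Of the 10 receptors, 3 rose (TNFRSF25, TNFRSF21 and TNFRSF10D) and 0 fell. An unadjusted p under 0.05 was found for 5 of the 10 receptors and for 4396 of all 14316 tested genes. DESeq2 also called 3 of the receptors higher and none lower. The median log2 fold change of the 10 receptors was 0.10, against -0.0025 over all tested genes. It was positive for 7 of the 10 receptors and for 7088 of the 14316 tested genes. TNFRSF25 was the 1 receptor with a change of at least 2-fold, a size that 1.67% of the tested genes reached. In 5 of the 10 receptors the 3 F2 libraries lay on 1 side of the 3 F0 libraries, 4 above and 1 below, where 34% of all tested genes were separated in this way. With so few members, these shares do not set the receptors apart from other genes.

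**Figure D1:**
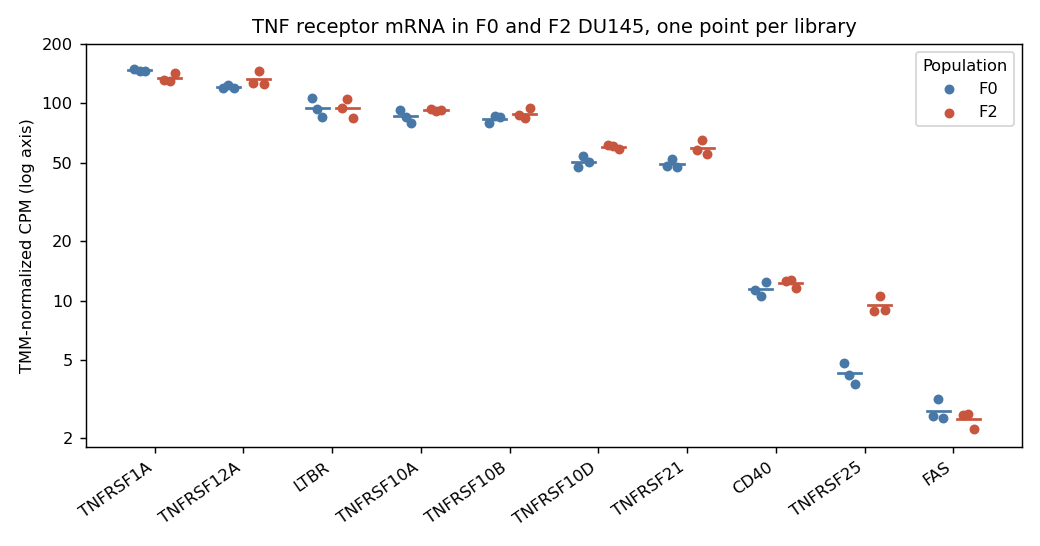
Level of each receptor in each library. The y axis is TMM-normalized CPM on a log scale, each point is 1 library, horizontal lines are means of 3 libraries, blue is F0 and red is F2. TNFRSF25 went from 4.27 to 9.44 CPM with no overlap, while FAS lay between 2.23 and 3.15 CPM in all 6 libraries.

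The receptors differed more from each other than between populations. In F0 the order from high to low was TNFRSF1A (147 ± 2.11 CPM, SD, n = 3), TNFRSF12A (121 ± 2.75), LTBR (94.999 ± 11.1), TNFRSF10A (86.0 ± 6.70), TNFRSF10B (83.6 ± 3.71), TNFRSF10D (50.7 ± 3.19), TNFRSF21 (49.3 ± 2.40), CD40 (11.5 ± 0.979), TNFRSF25 (4.27 ± 0.533) and FAS (2.76 ± 0.335). The ranges over 3 libraries overlapped between LTBR and TNFRSF10A, between TNFRSF10A and TNFRSF10B, and between TNFRSF10D and TNFRSF21, so these neighbors were not separated. The order of the means was the same in F2, where the ranges of TNFRSF1A and TNFRSF12A overlapped as well. By level, TNFRSF1A stood at the 90.5 percentile of tested genes and FAS at the 20.0 percentile. TNFRSF1A, TNFRSF12A and LTBR together made up 55.7% ± 0.812 of the summed CPM of the 10 receptors in F0 and 52.7% ± 0.920 in F2.

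TNFRSF25 (DR3, ENSG00000215788) is a death domain receptor best known from T cells, where its ligand TL1A drives costimulation. Its GRCh38 position is chromosome 1, 6460786 to 6466195, minus strand. It had 82, 69 and 64 counts in F0 against 138, 162 and 141 in F2, which are 4.84, 4.18 and 3.79 CPM against 8.82, 10.5 and 8.99 CPM. Every F2 library was above every F0 library. The mean level rose 2.21-fold, from 4.27 ± 0.533 to 9.44 ± 0.935 CPM (SD, n = 3 each), and edgeR gave 1.14 on the log2 scale (SE 0.15, adjusted p = 1.56e-05). TNFRSF25 passed the threshold in all 13 alternative fits, with log2 fold changes of 1.05 to 1.24. Its share of the summed receptor CPM went from 0.655% ± 0.0684 to 1.37% ± 0.0993, so by these counts the receptor with the largest change stayed among the rarest. Both TNFRSF25 and TNFRSF1A signal through TRADD, and the ratio of TNFRSF25 to TNFRSF1A went from 0.0290 ± 0.00325 to 0.0704 ± 0.00957.

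The last exon of the principal TNFRSF25 transcript, exon 10, spans 6461151 to 6461762 and holds a 3′ untranslated region of 283 bases. The gene shares 582 bases with ESPN on the opposite strand at this end, and 40.7% of the windows of 50 bases in the last 400 bases of that transcript also occur in ESPN transcripts. Whether strand was used in counting is not given in the sources used here. The effect of this overlap on the level and rank of TNFRSF25 was not tested. ESPN itself had at most 4 counts in any library. At its 5′ end TNFRSF25 shares 104 bases with the 3′ end of PLEKHG5 on the same strand, the end near which QuantSeq reads of PLEKHG5 fall. PLEKHG5 had 171, 163 and 159 counts in F0 and 259, 236 and 200 in F2, and rose from 9.79 ± 0.351 to 14.9 ± 1.94 CPM (log2 fold change 0.60, adjusted p = 0.00105 from edgeR). Its part in the TNFRSF25 counts was not tested.

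TNFRSF21 (DR6, ENSG00000146072, chromosome 6, 47231532 to 47309905) is a death domain receptor studied mostly in neurons and T cells. Its levels were 48.1, 52.1 and 47.8 CPM in F0 and 57.9, 64.9 and 55.5 CPM in F2. The populations did not overlap, and the highest value was that of F2 replicate 2. The mean rose 1.21-fold, from 49.3 ± 2.40 to 59.5 ± 4.89 CPM, and edgeR gave 0.27 on the log2 scale (SE 0.067, adjusted p = 0.00805). Omitting any 1 of the 6 libraries kept the call, with 0.20 to 0.32 on the log2 scale.

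TNFRSF1A (TNFR1, ENSG00000067182, chromosome 12, 6328757 to 6342114) is the main receptor of TNF on epithelial cells. It had 149, 145 and 146 CPM in F0 and 132, 129 and 142 CPM in F2, so that all F2 values were below all F0 values. The log2 fold change was -0.13 (SE 0.049, adjusted p = 0.0861 from edgeR), which did not pass the threshold. When libraries were scaled by their size alone, the value was -0.22 with an adjusted p of 0.00328 from edgeR. Without F2 replicate 3 it was -0.17 (adjusted p = 0.0438 from edgeR). Its 95% interval in the reported fit, -0.23 to -0.023 on the log2 scale, lies below 0 although the adjusted p missed the threshold.

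FAS (ENSG00000026103, chromosome 10, 88990582 to 89015785) is the receptor of FAS ligand. It was the lowest of the 10, with 44, 52 and 43 counts in F0 and 41, 41 and 35 counts in F2. These are 2.60, 3.15 and 2.54 CPM in F0 and 2.62, 2.66 and 2.23 CPM in F2, and the populations overlapped. The log2 fold change was -0.14 (adjusted p = 0.705 from edgeR), and its 95% interval ran from -0.59 to 0.31. FAS shares 758 bases at its 5′ end with ACTA2 on the opposite strand, and ACTA2 had at most 8 counts in any library.

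TNFRSF10A (DR4) and TNFRSF10B (DR5) are the death receptors of TRAIL, and TNFRSF10D is its decoy receptor with a truncated death domain. All are on chromosome 8 in GRCh38, on the minus strand, TNFRSF10A from 23190452 to 23225126, TNFRSF10B from 23020133 to 23069179 and TNFRSF10D from 23135588 to 23164030. TNFRSF10A was at 93.0, 85.3 and 79.6 CPM in F0 and at 93.7, 91.5 and 92.3 CPM in F2. The F0 values spread more widely than the F2 values, and F0 replicate 1 lay inside the F2 range. Its log2 fold change was 0.11 (95% interval -0.015 to 0.23, adjusted p = 0.227 from edgeR). Without F0 replicate 1 it was 0.17, with an adjusted p of 0.04998 from edgeR, just under the threshold. TNFRSF10B was at 79.4, 85.9 and 85.7 CPM in F0 and at 86.8, 84.1 and 94.2 CPM in F2, again overlapping. Its log2 fold change was 0.080 (95% interval -0.039 to 0.20, adjusted p = 0.370 from edgeR) and turned to -0.010 under scaling by library size alone.

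The decoy TNFRSF10D was at 47.8, 54.1 and 50.1 CPM in F0 and at 61.3, 60.8 and 58.5 CPM in F2. All F2 libraries were above all F0 libraries. The mean rose 1.19-fold, from 50.7 ± 3.19 to 60.2 ± 1.48 CPM, and edgeR gave 0.25 on the log2 scale (SE 0.062, adjusted p = 0.00773). The ratio of TNFRSF10A plus TNFRSF10B to TNFRSF10D was 3.61, 3.16 and 3.30 before selection and 2.94, 2.89 and 3.19 after it. F2 replicate 3 lay within the F0 range, so the ratio overlapped between the populations (3.36 ± 0.227 in F0, 3.01 ± 0.159 in F2). The other membrane decoy, TNFRSF10C, stood at 3.91 ± 0.681 CPM in F0 compared with 3.25 ± 0.430 in F2 (adjusted p = 0.386 from edgeR). No window of 50 bases in the last 400 bases of the principal TNFRSF10D transcript occurs in a transcript of another gene. For TNFRSF10A 49.9% of these windows occur in an antisense transcript of the same locus, which had 0 counts, and for TNFRSF10B 11.1% occur in transcripts of other genes, among them RHOBTB2.

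The rises of TNFRSF21 and TNFRSF10D depended on the scaling. Under library size alone, which lowered the median log2 fold change of all genes by 0.0897, they were 0.18 and 0.16 with adjusted p of 0.0584 and 0.0669 from edgeR. In that fit 22.9% of the genes past the threshold were higher in F2, against 52.3% with TMM. TNFRSF25 stayed past the threshold with 1.05.

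**Figure D2:**
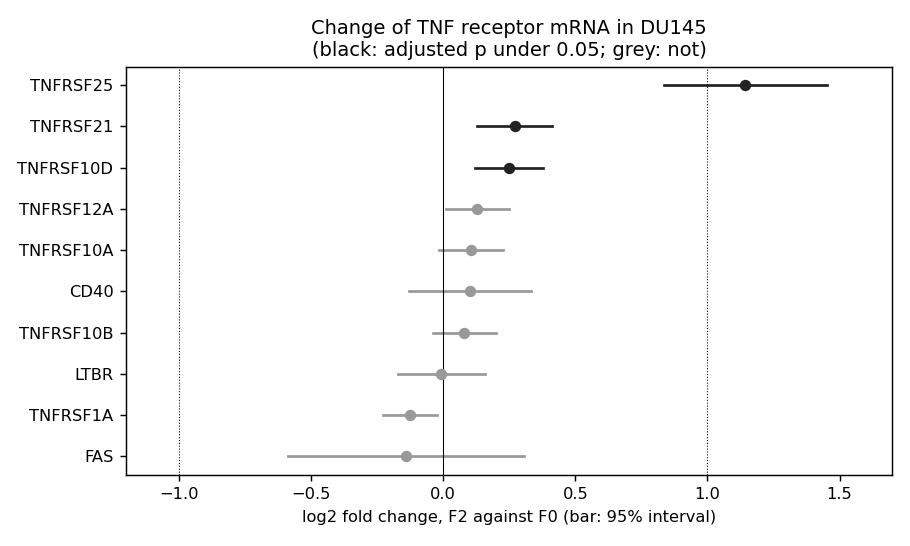
Change of each receptor between F0 and F2. The x axis is the log2 fold change, bars are 95% intervals from the edgeR fit with 3 libraries per population, black marks an adjusted p under 0.05, and dotted lines mark 2-fold. The interval of TNFRSF25 (0.84 to 1.45) lies above those of the other 9 receptors, which span -0.59 to 0.41.

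TNFRSF12A (FN14, ENSG00000006327, chromosome 16, 3018445 to 3022383) is the receptor of TWEAK and has no death domain. The F0 libraries gave 119, 124 and 120 CPM and the F2 libraries 126, 145 and 125 CPM. The F2 libraries were all above the F0 libraries, by a narrow margin except in replicate 2. The log2 fold change was 0.13 (SE 0.057, adjusted p = 0.125 from edgeR), and it did not pass the threshold in any of the 13 alternative fits. LTBR (ENSG00000111321, chromosome 12, 6375045 to 6391571), the lymphotoxin-β receptor, which feeds non-canonical NF-κB, was at 107, 93.1 and 85.0 CPM in F0 and at 94.8, 105 and 83.9 CPM in F2. The populations covered the same range, with a log2 fold change of -0.0067 (95% interval -0.17 to 0.16, adjusted p = 0.967 from edgeR). CD40 (ENSG00000101017, chromosome 20, 46118272 to 46129863), best known from B cells and also present on epithelial cancer cells, gave 11.3, 10.5 and 12.5 CPM before selection and 12.6, 12.7 and 11.6 CPM after it. These ranges overlapped, and the log2 fold change was 0.10 (95% interval -0.13 to 0.33, adjusted p = 0.571 from edgeR).

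Genes next to the other receptors were read as well. At the 5′ end of LTBR, SCNN1A on the opposite strand shares 2686 bases and fell from 1.01 ± 0.173 to 0.428 ± 0.131 CPM (log2 fold change -1.23, adjusted p = 0.0400 from edgeR), with at most 20 counts in any library. That call held in 4 of the 12 alternatives that gave SCNN1A a value, and DESeq2 gave an adjusted p of 0.127. RHOBTB2, which shares 67 bases with TNFRSF10B on the opposite strand, fell by 0.28 on the log2 scale (adjusted p = 0.0254 from edgeR) and passed the threshold in 2 of the 6 fits without 1 library. HCFC1R1 and THOC6, downstream of TNFRSF12A, and the divergent transcript TNFRSF10A-DT did not pass the threshold, with adjusted p of 0.195, 0.0662 and 0.812 from edgeR, although THOC6 passed in 4 of 13 alternatives. The part of these genes in the receptor counts was not tested. No shared 50-base window was found in the last 400 bases of the principal transcripts of TNFRSF1A, FAS, TNFRSF21, TNFRSF12A, LTBR and CD40.

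Summed over the 6 receptors with a death domain, the level was 377, 376 and 365 CPM in F0 and 382, 383 and 396 CPM in F2. All F2 sums were above the F0 sums, by a mean of 387 against 373 CPM, whereas with plain CPM by library size the means were 384 in F0 and 375 in F2 and the populations overlapped. The 3 receptors without a death domain summed to 237, 228 and 217 CPM in F0 and to 234, 263 and 221 CPM in F2, which overlapped. No test was made of these sums, because the members were chosen. Since the libraries come from bulk RNA, a different share of cells that express a receptor and a different amount per cell cannot be told apart.

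Other receptors of the family, their ligands and the proteins behind them were described with the same fit, from lists written for this comparison. The shares of all tested genes to set beside the counts of every list are 9.49% higher and 8.67% lower in F2. Of 19 other TNF receptors, 5 were tested and 14 had too few counts, at most 16 in any library. Only TNFRSF11A passed the threshold, and the list had a median log2 fold change of -0.27 over its 5 tested genes. TNFRSF11A encodes RANK, the receptor of the osteoclast factor RANKL. It had 121, 152 and 128 counts in F0 and 266, 260 and 264 in F2, which are 7.14, 9.21 and 7.57 CPM against 17.0, 16.9 and 16.8 CPM. All F2 libraries were above all F0 libraries, and the mean rose from 7.97 ± 1.09 to 16.9 ± 0.0898 CPM. The edgeR estimate was 1.08 on the log2 scale (SE 0.11, adjusted p = 1.20e-06) and passed the threshold in all 13 alternative fits.

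Ligands of the death receptors were at or near the floor in DU145. FASLG, CD40LG and the RANK ligand TNFSF11 had 0 counts in every library, which allows at most 0.195 CPM in any of them. TNFSF10, which encodes TRAIL, and TNFSF15, which encodes the TNFRSF25 ligand TL1A, had at most 1 count in any library, and TNF had at most 2. LTB, a ligand of LTBR, was present at 13.5 ± 0.360 CPM in F0 and 13.5 ± 1.81 in F2, and TNFSF12, the TNFRSF12A ligand TWEAK, at 11.9 ± 0.939 and 12.1 ± 0.841. The other lymphotoxin gene, LTA, had at most 8 counts in any library and was not tested. Of 6 tested ligands 2 fell and 0 rose, with a median log2 fold change of -0.049. CD70, the ligand of CD27, went from 179, 140 and 126 CPM in F0 to 95.8, 120 and 84.4 CPM in F2, without overlap. The edgeR estimate was -0.56 on the log2 scale (SE 0.11, adjusted p = 0.00105), and DESeq2 gave an adjusted p of 0.0593. TNFSF9 (4-1BB ligand) fell from 32.4 ± 1.42 to 26.0 ± 1.10 CPM (log2 fold change -0.31, adjusted p = 0.00588 from edgeR).

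Of 14 genes of the death signaling complex 13 were tested, with a median log2 fold change of 0.061. Of the 13, 3 rose and 1 fell, where 9.49% of all tested genes rose and 8.67% fell. RIPK3, the kinase that activates MLKL in necroptosis, had 0 counts in every library. MLKL rose from 14.7 ± 0.428 to 19.5 ± 1.13 CPM (log2 fold change 0.41, adjusted p = 0.00373 from edgeR). FADD, the adaptor of FAS and of the TRAIL receptors, rose by 0.17 (adjusted p = 0.0317 from edgeR), and FAF1, a FAS-binding protein, by 0.20 (adjusted p = 0.0202 from edgeR). CFLAR, which encodes the caspase-8 inhibitor c-FLIP, fell by 0.18 on the log2 scale, with 234 ± 15.0 CPM in F0 and 207 ± 2.61 CPM in F2 (adjusted p = 0.0148 from edgeR). With each of the 6 libraries omitted in turn, FADD and CFLAR passed the threshold 3 times and FAF1 2 times, against 6 times for MLKL. Scaled by library size alone, FADD was at 0.080 (adjusted p = 0.296 from edgeR) and FAF1 at 0.11 (adjusted p = 0.186), and DESeq2 gave FADD an adjusted p of 0.0582. The initiator CASP8 was at 32.5 ± 4.92 CPM in F0 and 33.6 ± 0.848 in F2 (adjusted p = 0.762 from edgeR).

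**Figure D3:**
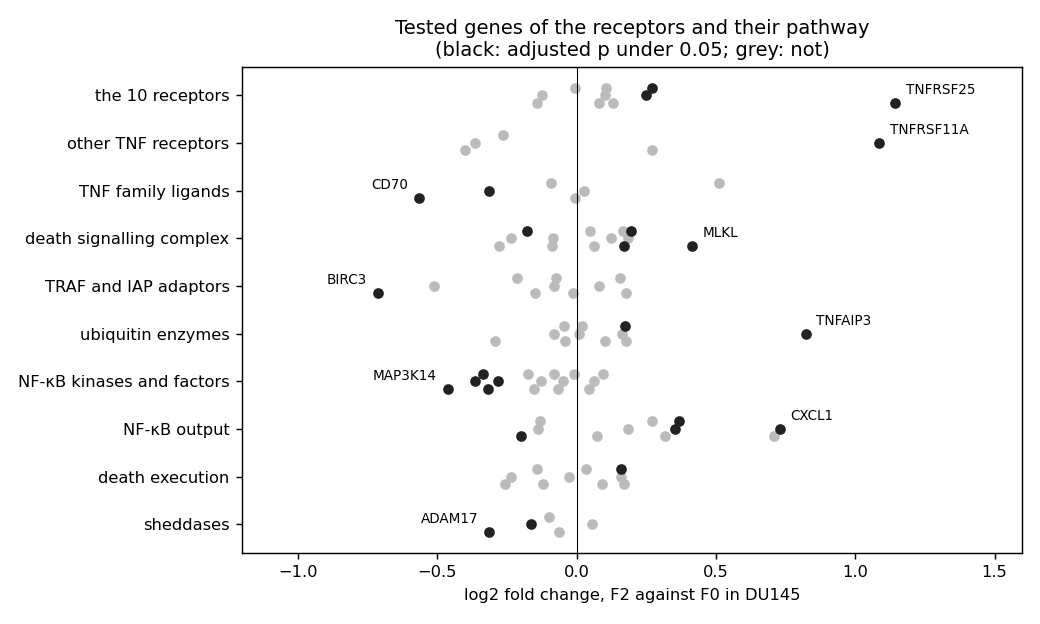
Log2 fold change of every tested gene of the receptors and of 9 pathway lists, 1 point per gene and 1 row per list, with small vertical offsets for legibility. Black marks an adjusted p under 0.05 from edgeR with 3 libraries per population. TNFRSF25 and TNFRSF11A are the rightmost points, at 1.14 and 1.08, and BIRC3 is the leftmost at -0.71.

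TRAF proteins and the IAPs bound to them stood at a median log2 fold change of -0.076, and 1 of 10 passed the threshold. This was BIRC3, a ubiquitin ligase of the TNFRSF1A complex and itself an NF-κB target, at 157, 156 and 146 CPM in F0 and 95.1, 93.1 and 91.7 CPM in F2. The edgeR estimate was -0.71 on the log2 scale (SE 0.049, adjusted p = 3.66e-09). Of 11 tested ubiquitin and deubiquitin enzymes 2 rose and 0 fell, with a median of 0.021. TNFAIP3, which encodes A20, a brake on NF-κB downstream of TNFRSF1A, went from 11.2, 13.9 and 10.4 CPM to 20.3, 21.2 and 21.2 CPM, without overlap. The edgeR estimate was 0.82 on the log2 scale (SE 0.11, adjusted p = 2.02e-05). RBCK1, which encodes HOIL-1, rose by 0.17 (adjusted p = 0.0272 from edgeR), with overlapping populations. It passed in 1 of the 6 fits with a library omitted and stood at 0.083 (adjusted p = 0.270 from edgeR) by library size alone.

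Among NF-κB kinases, factors and their IκB inhibitors, 5 of 15 tested genes fell and 0 rose, with a median log2 fold change of -0.13. The falls were those of MAP3K14, NFKB2 and the inhibitors NFKBIA, NFKBIB and NFKBIE. NFKB2 fell by 0.32 (adjusted p = 0.0116 from edgeR) and NFKBIB by 0.28 (adjusted p = 0.00853 from edgeR) on the log2 scale. MAP3K14, which encodes NIK, the kinase of the non-canonical pathway used by LTBR, CD40 and TNFRSF12A, fell from 51.8 ± 3.91 to 37.6 ± 3.99 CPM (log2 fold change -0.46, adjusted p = 3.10e-04 from edgeR). NFKBIE fell by 0.36 on the log2 scale (adjusted p = 0.00727 from edgeR) and NFKBIA, which encodes IκBα, by 0.34 (adjusted p = 5.38e-06 from edgeR). Typical NF-κB output genes moved in both directions, with 3 of 11 tested genes higher, 1 lower and a median of 0.27. CXCL1 (0.73, adjusted p = 0.00305 from edgeR), IER3 (0.37, adjusted p = 2.20e-04 from edgeR) and CXCL8 (0.35, adjusted p = 0.00747 from edgeR) rose, and TNFAIP2 fell by 0.20 (adjusted p = 0.00257 from edgeR). The background share of calls is 18.2% for every list (9.49% higher and 8.67% lower in F2), and no list was tested as a set.

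**Figure D4:**
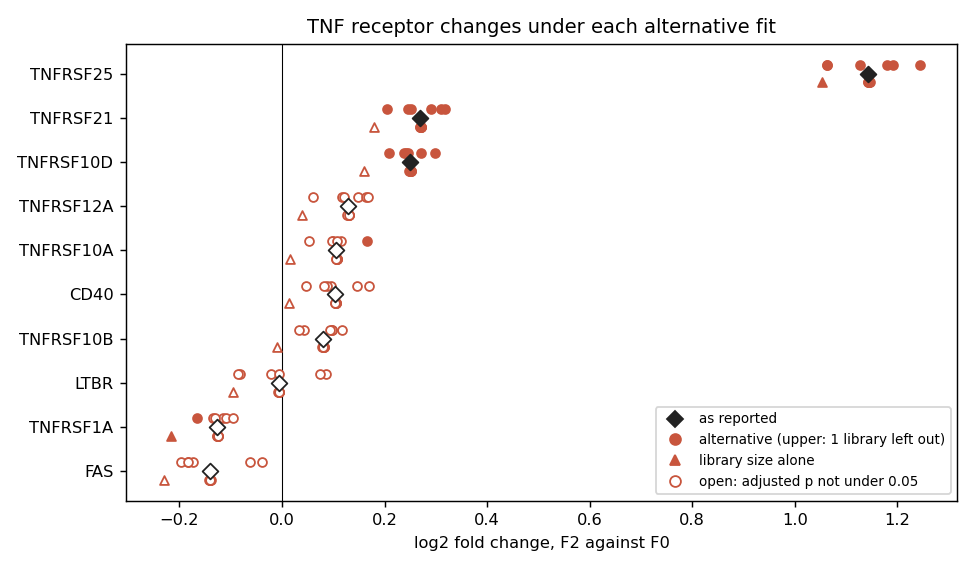
Log2 fold change of each receptor in the reported fit (diamond) and in 13 alternative fits. Upper points each leave out 1 library, lower points change scaling, filter, block or tool, the triangle is scaling by library size alone, and filled marks have an adjusted p under 0.05. TNFRSF25 is filled in every fit, while TNFRSF21 and TNFRSF10D are open only under library size alone.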

How the data were processed

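RNA of 3 F0 and 3 F2 DU145 samples was profiled with QuantSeq from 500 ng of RNA per library. The authors ran the Bluebee platform, and the submitters' processing notes name STAR 2.5.2a, HTSeq 0.6.0 and GRCh38. The annotation and strand setting are not given in the sources used here. The authors deposited raw counts per gene, without normalization. Rows that name no gene stayed out of library sizes: reads outside genes were 9.81% ± 0.213 in F0 and 11.6% ± 0.303 in F2 of gene, ambiguous and non-gene reads together (SD, n = 3 each). The table also lists 92 spike-in RNAs, which were left out.

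Symbols were matched for 56104 of 60107 identifiers, and positions are from GENCODE release 29 on GRCh38. Tests used R 4.3.3, edgeR 4.0.16 and DESeq2 1.42.0: filterByExpr (minimum count 10, minimum total count 15), TMM and the two-sided quasi-likelihood test of F2 against F0 without covariates, adjusted over 14316 genes. Standard errors were derived from the F statistic. On simulated data with known changes (14316 genes simulated for this comparison), 97.0% of genes changed by 2, 85.1% of those changed by 1 and 63.6% of those changed by 0.5 on the log2 scale were recovered. Each size was given to 66 or 67 genes, and 3.53% of the calls were false. Every receptor but TNFRSF25 had an estimate smaller than 0.5 in size, so recovery at those sizes was not tested. With 3 against 3 samples an exact permutation test cannot give a p under 0.1. Replicate pairs differed by more than sampling noise (chi-square per degree of freedom 2.20 to 5.95). The members and lists were chosen with earlier results of these data known. Named genes are the 10 receptors, genes that overlap them or lie within 5000 bases of their 3′ ends, and up to 3 rises and 3 falls past the threshold per list. The 3 genes with the highest Pearson correlation to the most changed receptor, from those with a mean of at least 10 CPM, were also named, and other genes of a list were named for their role. Of the 16 NF-κB output genes 15 were matched by identifier. The alternatives were median-ratio size factors, library size alone, 2 other filters, DESeq2, a replicate block, no mitochondrially encoded genes and each library left out.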

Additional observations from a re-analysis of the deposited data

How the results depend on the processing

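Across 13 alternatives the number of receptors past the threshold stayed between 2 and 4, and it ranged from 3 to 4 over the 6 fits that left out 1 library. The receptors behind these counts were not always the same. Under library size alone the 2 were TNFRSF25, higher in F2, and TNFRSF1A, lower in F2 (-0.22, adjusted p = 0.00328 from edgeR). Where 4 passed, the added call was TNFRSF10A, higher without F0 replicate 1, or TNFRSF1A, lower without F2 replicate 3. TNFRSF25 passed in all 13. Scaling by library size alone ended the calls of TNFRSF21 and TNFRSF10D, and it also turned TNFRSF10B to -0.010 on the log2 scale, the F2 minus F0 difference of the summed death domain receptors to -9.55 CPM and that of all 10 receptors to -6.11 CPM. LTBR ranged from -0.0862 to 0.0862 when 1 library was left out, turning to 0.0862 without F0 replicate 1 and to 0.0739 without F2 replicate 3. When 1 library was left out, TNFRSF10A-DT ranged from -0.117 to 0.0254 and the lincRNA ENSG00000256433 downstream of LTBR from -0.0854 to 0.235, the latter with -0.0361 by library size alone. The causes were not tested. Over all genes, the count past the threshold was 2599, with 1670 to 2621 when 1 library was left out, the lowest without F0 replicate 2. At 2-fold it was 239, with 199 to 250 in those fits and 134 with at least 10 counts in every library, a filter under which fewer genes (13255) were tested.

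With a replicate block 2867 genes and 3 receptors passed the threshold. For libraries with equal replicate numbers, the correlations of their deviations from the group means were 0.036, -0.015 and 0.045. With 3 libraries per population these values cannot decide whether the libraries were handled in pairs. Some genes of the pathway lists and some neighboring genes lost their call in at least 1 alternative. These were CD70, FAF1, FADD, CFLAR, RBCK1, NFKBIE, NFKBIB, NFKB2, CXCL8, PARP1, SPPL2A, RHOBTB2 and SCNN1A. Without F2 replicate 3 the list of NF-κB kinases, factors and inhibitors had 3 calls, those of MAP3K14, NFKBIA and NFKBIE, against 5 in the reported fit. NFKBIE lost its call without F0 replicate 2 (-0.28, adjusted p = 0.0737 from edgeR) and CXCL8 without F2 replicate 3 (0.28, adjusted p = 0.0549). PLEKHG5 kept its call in all 13. Depth limits the 2 rarest receptors, FAS and TNFRSF25, most: they had 35 to 52 and 64 to 162 counts per library.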

Other observations

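Enzymes that release or cleave TNF family proteins were also looked at. ADAM17, the main sheddase of TNF and of TNFRSF1A, was at 147 ± 8.04 CPM in F0 and fell to 118 ± 2.52 CPM in F2 (SD, n = 3 each). The edgeR estimate was -0.31 on the log2 scale (adjusted p = 1.98e-04) and passed the threshold in all 13 alternative fits. SPPL2A, an intramembrane protease that acts on TNF and FAS ligand stubs, fell by 0.16 on the log2 scale (adjusted p = 0.0326 from edgeR), and passed the threshold in 2 of the 6 fits without 1 library. ADAM10 was at 76.3 ± 2.49 CPM in F0 and 71.2 ± 3.56 in F2 (adjusted p = 0.245 from edgeR), and MMP7 had 0 counts in every library. Among 10 genes of death execution 1 rose, PARP1 (log2 fold change 0.16, adjusted p = 0.0199 from edgeR), and 0 fell, with a median of 0.0023. Over all tested genes 9.49% rose and 8.67% fell. PARP1 passed the threshold in 2 of the 6 fits without 1 library and stood at 0.069 (adjusted p = 0.293 from edgeR) under library size alone.

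Of 8650 genes with a mean of at least 10 CPM, those whose log2 CPM followed TNFRSF25 most closely over the 6 libraries were U2SURP (Pearson r = 0.999), MT-ATP8 (0.997) and RBBP6 (0.997). The 6 libraries fall into 2 populations, so these values mostly restate the difference between F0 and F2 and are a description only.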
